A study of Mus musculus with 8 samples.

Results

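Transcripts of 32 genes that carry out or control cholesterol synthesis, uptake, efflux and storage were measured in livers of young Rragc+/+ and Rragc S74N/+ mice. The genes were chosen by name, and all 32 were found among the 14506 genes listed and passed the filter on low values that left 11174 genes for testing. Of the 32, 20 encode enzymes of the synthesis pathway, 8 in the arm that leads to isoprenoids and 12 in the arm that leads from squalene to cholesterol. The other 12 are 4 genes of SREBP2 control, Stard4 and Mylip, 4 genes of efflux and esterification, and the genes of both liver X receptors. Rragc encodes RagC, a small GTPase at the lysosome through which nutrients act on the kinase complex mTORC1. The S74N allele was knocked in by genome editing, with silent changes beside the substitution, and keeps RagC in an activating state. All cells of these heterozygotes carry 1 edited and 1 normal allele, and no homozygote survives, so the comparison concerns a single edited allele. There were 4 livers of each genotype, 1 per mouse, on a C57BL/6 background. The Rragc+/+ mice were 3 months old in replicates 1 to 3 and 2.5 months in replicate 4. The Rragc S74N/+ mice were 3 months old in replicates 1 and 2, 2.5 months in replicate 3 and 2 months in replicate 4. Sex, feeding state and hour of collection were not given in the sources used here. Wherever 4 values of a genotype are listed, they stand in the order of replicates 1 to 4.

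Cholesterol is built from acetyl-CoA through mevalonate, isoprenoid diphosphates, squalene and lanosterol, and the liver is a main site of this synthesis. SREBP2 is held in the endoplasmic reticulum by SCAP and the INSIG proteins while sterols are plentiful. When sterols fall, SCAP carries it to the Golgi, where it is cut to release a transcription factor that binds sterol regulatory elements, often beside CCAAT boxes bound by NF-Y. Liver X receptors respond to oxidised sterols and drive transporters that export cholesterol and MYLIP, a ubiquitin ligase that removes lipoprotein receptors.

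Sequences upstream of the genes on which the results turn are shown here, because the enzymes share a regulator that reads such sequence. They come from RefSeq on GRCm38.p6, are written 5′ to 3′ on the strand of the gene, and have matches to TCACNCCAC, a core of the sterol regulatory element, or to CCAAT, in either orientation, in capitals. In these stretches no match of the first motif overlapped one of the second. Hmgcs1 (chr13:119690151-119690350, forward strand), Mvd (chr8:122443423-122443622, reverse strand) and Msmo1 (chr8:64733579-64733778, reverse strand) are shown for the 200 bases before their start. Abcg5 with Abcg8 is shown for the 109 bases between the Abcg5 start and 1 of 2 Abcg8 starts (chr17:84683012-84683120), read on the forward strand.
Hmgcs1: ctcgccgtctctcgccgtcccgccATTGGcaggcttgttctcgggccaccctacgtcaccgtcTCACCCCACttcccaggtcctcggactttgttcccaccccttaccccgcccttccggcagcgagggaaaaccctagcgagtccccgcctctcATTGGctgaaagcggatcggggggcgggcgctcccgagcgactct
Mvd: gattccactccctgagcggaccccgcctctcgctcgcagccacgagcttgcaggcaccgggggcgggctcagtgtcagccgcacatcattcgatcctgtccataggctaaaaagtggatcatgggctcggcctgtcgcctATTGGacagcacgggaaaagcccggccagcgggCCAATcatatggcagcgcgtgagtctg
Msmo1: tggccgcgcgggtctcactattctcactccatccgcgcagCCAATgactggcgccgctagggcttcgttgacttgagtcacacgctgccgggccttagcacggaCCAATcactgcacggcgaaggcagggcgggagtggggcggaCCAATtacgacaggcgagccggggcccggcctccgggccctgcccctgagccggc
Abcg5 to Abcg8: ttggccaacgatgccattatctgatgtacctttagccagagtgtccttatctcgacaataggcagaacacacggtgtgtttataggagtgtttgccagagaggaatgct
The Hmgcs1 stretch held 1 TCACNCCAC match, at -137 from the start, and 2 CCAAT matches, while Mvd held 2 and Msmo1 held 3 CCAAT matches and neither held TCACNCCAC. The stretch between Abcg5 and Abcg8 held neither motif, though the longer windows described next held CCAAT for both genes. Over windows from 250 bases before to 50 after a start, CCAAT on either strand was found for 22 of the 27 genes with a window (81.5%), among them 16 of 17 enzymes (94.1%), against 41.1% of 27025 genes in the table. TCACNCCAC was found for Hmgcs1 alone of the 27 (3.70%), against 1.44% of all genes. The 27025 genes were not limited to genes tested in these livers, whereas all 27 were tested. Several genes had more than 1 start, and a gene was counted once if any of its windows matched. A match describes letters and not binding, and a window with no match lacks only these letters. Fdft1, Fdps, Sqle, Stard4 and Soat2 had no window in the table.

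Values are normalized read counts from a kit that reads the 3′ end of each transcript, so levels were not divided by length and levels of different genes can be set side by side only roughly. Between 4313076 and 6632108 reads in listed genes stood behind each liver, and between 21 and 4324 reads behind each value of the 32 genes. Intervals given here rest on the spread between livers. Rragc itself averaged 84.1 ± 20.4 (SD, n = 4) in Rragc+/+ livers and 76.6 ± 7.32 in Rragc S74N/+ livers, which does not check the labels because a substitution need not alter the level. Hepatocyte markers were abundant in every liver, with a mean log2 level of 7 tested markers from 13.7 to 14.8, and these are whole livers, in which fewer cells of a type and less RNA per cell cannot be told apart. Other lists of genes moved with genotype or with single livers. Of 5 kidney-abundant genes, 2 were tested, Gpx3 and Kap, and both had lower levels in Rragc S74N/+. Their log2 fold changes were -1.95 and -2.20 (limma adjusted p = 0.0411 and 0.846), and Gpx3 was the 1 tested gene with an adjusted p under 0.05. All 10 genes of a male-biased liver list had a lower mean log2 level there. The mean of that list was 11.5 to 11.7 in Rragc+/+ livers and 11.3, 10.7, 11.2 and 8.57 in Rragc S74N/+ livers. Of 10 Kupffer cell markers, 7 were higher in Rragc S74N/+, with a list mean from 7.42 to 7.57 in Rragc+/+ and from 7.57 to 8.29 in Rragc S74N/+. Of 5 B and plasma cell markers, 2 were tested and both were higher in Rragc S74N/+. Their mean was from 5.17 to 5.71 in Rragc+/+ and from 5.95 to 6.68 in Rragc S74N/+. List means did not overlap between genotypes for the kidney, male-biased, Kupffer cell, and B and plasma cell lists. The Kupffer cell gap was narrow, between 7.567 and 7.571. Among single tested genes, 2.94% did not overlap, and no such share was computed for list means. A list of fasting genes had a mean from 8.86 to 9.10 in Rragc+/+ and from 8.99 to 10.3 in Rragc S74N/+. The part of these differences in the results on cholesterol genes was not tested.

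To ask whether cholesterol genes differed between genotypes, every tested gene was compared with limma on log2(normalized count + 1), a scale that understates changes of low counts. None of the 32 genes passed an adjusted p of 0.05, against 0.00895% of all tested genes, which is 1 gene. The smallest adjusted p among the 32 was 0.846 with limma, 0.812 with edgeR and 0.203 with DESeq2. At an unadjusted p under 0.05 there were 3 of 32 genes (9.38%), against 5.17% of all tested genes. Mvd and Msmo1 were the 2 lower ones, where 2.8% of all genes were lower at this level, and Abcg5 was the 1 higher gene, where 2.37% of all genes were higher. Mvd was also the 1 gene of 32 whose genotypes did not overlap (3.12%), against 2.94% of all genes. With these small counts the shares lie near the background. Fold changes were below 0 for 20 genes and above 0 for 12, so that 62.5% were lower in Rragc S74N/+ against 48.7% of all tested genes. Their median was -0.053 against 0.012 over all tested genes on the log2 scale.

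**Figure D1:**
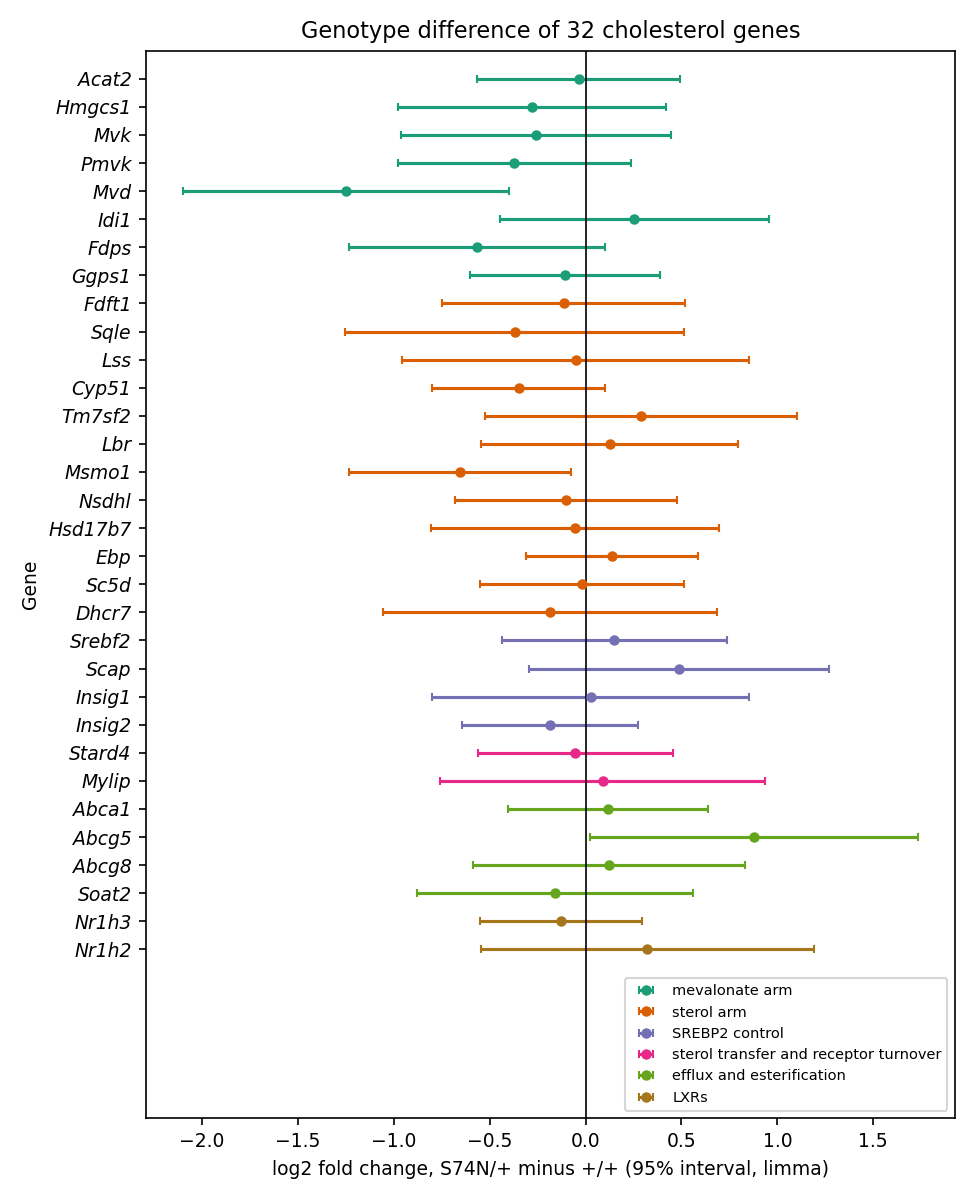
Log2 fold change (horizontal axis, Rragc S74N/+ minus Rragc+/+, on log2(normalized count + 1)) of each of the 32 genes, with bars for the 95% interval of limma and colours for role groups. The intervals of Mvd and Msmo1 lie below 0 and that of Abcg5 lies just above 0, while the other 29 cross it.

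The data limit what can be said of single genes. The 95% interval of a fold change reached 0.68 on the log2 scale to either side at the median gene, and from 0.42 to 0.90 over the 32. The whole interval lay between -1 and 1 for 23 genes. For these genes a change of 2-fold lay outside the interval.

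In the mevalonate arm, the log2 fold change was below 0 for 7 of 8 genes and above 0 for 1, Idi1. The median log2 fold change of the arm was -0.27. Mvd encodes mevalonate diphosphate decarboxylase, which makes isopentenyl diphosphate, the building block of isoprenoids. Its normalized counts were 411, 196, 221 and 874 in Rragc+/+ livers and 191, 124, 129 and 158 in Rragc S74N/+ livers. Every Rragc S74N/+ liver was below every Rragc+/+ liver, but the gap between 191 and 196 is narrow, and replicate 4 of Rragc+/+ stood well above its group. The mean was 426 ± 314 in Rragc+/+ and 151 ± 31.0 in Rragc S74N/+ (SD, n = 4 each). Its log2 fold change was -1.25 (standard error 0.39), with a 95% interval from -2.10 to -0.40 (limma p = 0.00742 unadjusted and 0.846 adjusted, exact permutation p = 0.0286). The exact test was two-sided over the 70 labellings, and 0.0286 is the smallest p it can give. The unadjusted p stayed under 0.05 whichever of the 8 livers was omitted. The fold change without Rragc+/+ replicate 4 was -0.81, and among 3-month-old mice alone it was -0.76.

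Hmgcs1, the cytosolic HMG-CoA synthase at the entry to the pathway, had the highest level of this arm. It was at 1179, 1711, 1289 and 2654 in Rragc+/+ livers and at 1285, 1091, 915 and 2479 in Rragc S74N/+ livers. Replicate 4 was highest in each genotype and the groups overlapped. Its log2 fold change was -0.28, less than its standard error of 0.32, by limma (adjusted p = 0.867). Fdps, which makes farnesyl diphosphate, averaged 963 ± 391 in Rragc+/+ livers and 631 ± 193 in Rragc S74N/+ (SD, n = 4 each), with a log2 fold change of -0.57 (limma p = 0.0897 unadjusted and 0.846 adjusted, exact permutation p = 0.229). The kinases Mvk and Pmvk, which phosphorylate mevalonate in succession, had log2 fold changes of -0.26 and -0.37. Acat2, a thiolase that makes acetoacetyl-CoA, was at 555 ± 107 and 557 ± 198 (SD, n = 4 each), so its mean differed by less than the spread between livers. Idi1, the isomerase of isopentenyl diphosphate, had a log2 fold change of 0.25. Ggps1, which makes the 20-carbon isoprenoid for protein prenylation, varied least of the 32 genes, with 72.5 as its lowest and 102 as its highest normalized count.

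In the sterol arm, the log2 fold change was below 0 for 9 of 12 genes and above 0 for 3, with a median of -0.078. Lss and Hsd17b7 were among the 9, though their mean normalized counts were slightly higher in Rragc S74N/+ livers. Msmo1 encodes the oxidase that starts removal of the methyl groups at carbon 4 of the sterol ring. Its normalized counts were 857, 1356, 815 and 1669.5 in Rragc+/+ livers and 768, 556, 611 and 983 in Rragc S74N/+ livers. The groups overlapped only through replicate 4 of Rragc S74N/+, which lay above replicates 1 and 3 of Rragc+/+. The mean was 1174 ± 412 and 729.6 ± 191 (SD, n = 4 each), and the log2 fold change was -0.65 (standard error 0.27), with an interval from -1.23 to -0.075 (limma p = 0.0298 unadjusted and 0.846 adjusted, exact permutation p = 0.114). The unadjusted p was above 0.05 without Rragc+/+ replicate 2 (0.0835) or 4 (0.106), and without Rragc S74N/+ replicate 2 (0.0964) or 3 (0.0609), and with all livers but no mean-variance trend (0.0619), by limma in each case. The fold change was -0.46 without Rragc+/+ replicate 4.

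Sc5d, the desaturase that acts late in the pathway, had the highest level of the sterol arm and hardly differed in mean between genotypes. It was at 2045, 1966, 2477 and 3537 in Rragc+/+ livers and at 2288, 2097, 1984 and 3527 in Rragc S74N/+ livers. Again replicate 4 was highest in each genotype. The log2 fold change was -0.017 with an interval from -0.55 to 0.52. Cyp51, which demethylates lanosterol, had a log2 fold change of -0.35 (limma p = 0.118 unadjusted and 0.846 adjusted, exact permutation p = 0.114). Sqle, the squalene epoxidase, ranged from 96.2 to 369 in Rragc+/+ and from 88.0 to 260.2 in Rragc S74N/+ livers, with a log2 fold change of -0.37. The 3 genes of the arm with a log2 fold change above 0 were Tm7sf2 and Lbr, which both encode sterol C14 reductases, and Ebp, a sterol isomerase. Their log2 fold changes were 0.29, 0.13 and 0.14. Fdft1 (squalene synthase), Lss (lanosterol synthase), Nsdhl, Hsd17b7 (both of C4 demethylation) and Dhcr7 (the reductase that makes cholesterol from 7-dehydrocholesterol) had log2 fold changes between -0.19 and -0.051, each smaller than its standard error.

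**Figure D2:**
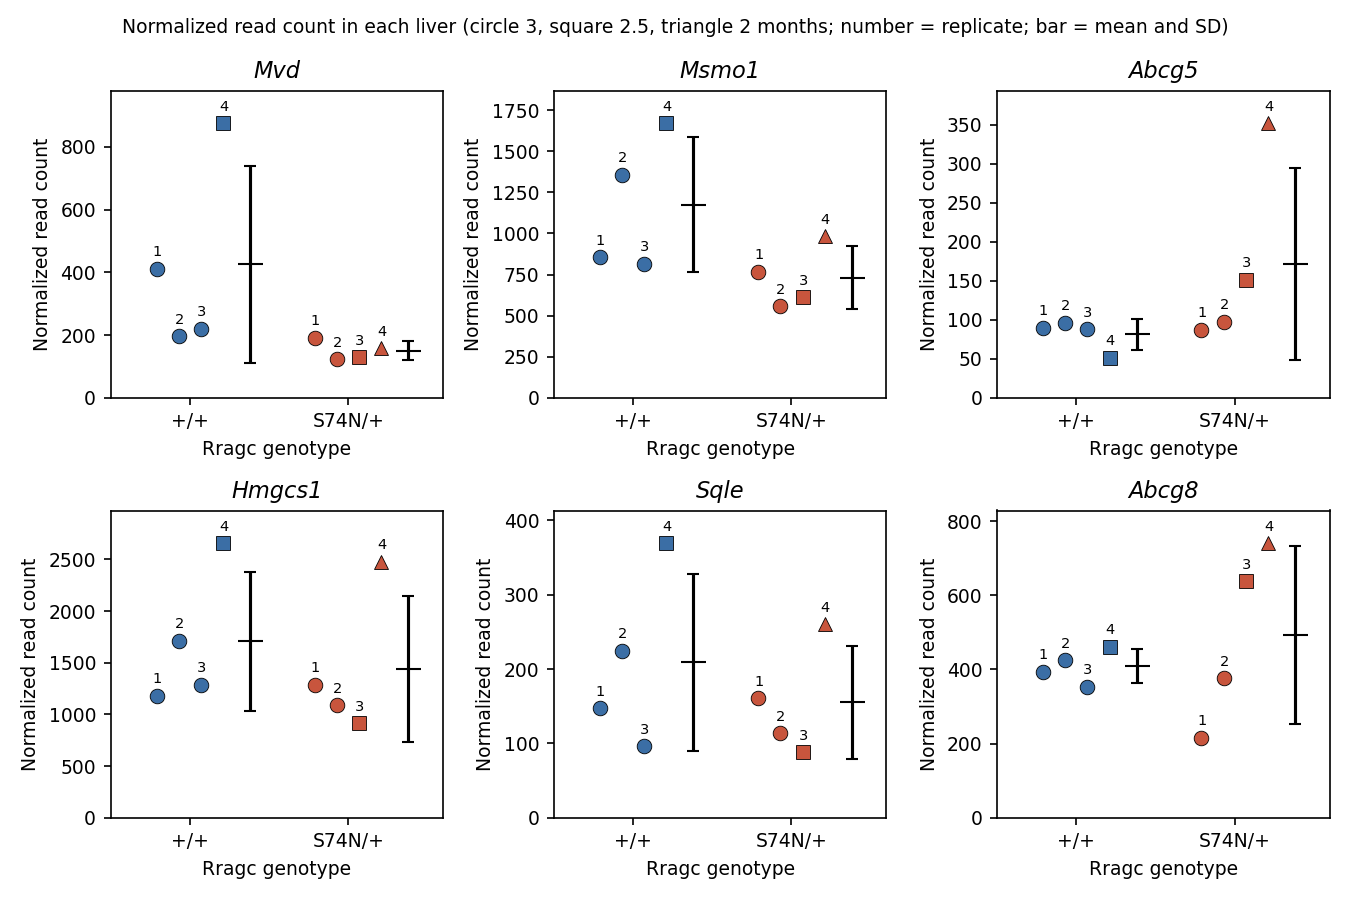
Normalized read count (vertical axis, linear from 0) of 6 genes in each liver by Rragc genotype, with a number for the replicate, a symbol for age and a bar for mean and SD (n = 4). Mvd does not overlap between genotypes, Msmo1 overlaps through a single Rragc S74N/+ liver, and Hmgcs1, Sqle and Msmo1 are highest in replicate 4 of each genotype.

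Enzyme levels varied widely between livers. Between the lowest and the highest of all 8 livers, Mvd spanned 7.08-fold, Dhcr7 4.96-fold, Lss 4.26-fold and Sqle 4.19-fold. The mean log2 level of the 20 enzymes was 8.36, 8.51, 8.07 and 8.89 in Rragc+/+ livers and 8.33, 8.09, 7.83 and 8.80 in Rragc S74N/+ livers. Replicate 4 stood highest within each genotype, and the groups overlapped. Replicate 4 of Rragc+/+ held the highest value for 10 of the 20 enzymes and replicate 4 of Rragc S74N/+ for 6, while replicate 3 of Rragc S74N/+ held the lowest value for 8. The genotype means were 8.46 ± 0.34 and 8.26 ± 0.42 (SD, n = 4 each), a difference of -0.20 that was smaller than either SD. Of the 20 enzymes, 16 (80%) had a log2 fold change below 0, against 48.7% of all tested genes. The enzymes varied together across livers, so these are not 16 separate observations. For several of them the sign turned under an alternative.

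The difference of enzyme means between genotypes depended on single livers. It was -0.054 without Rragc+/+ replicate 4 and -0.053 without Rragc S74N/+ replicate 3, against -0.38 without Rragc S74N/+ replicate 4 and -0.33 without Rragc+/+ replicate 3. Among 3-month-old mice alone it was -0.11. At 2.5 months, with 1 mouse of each genotype and so no test, it was -1.06. With age as a covariate it was -0.35, and 4 of 32 genes (12.5%), Pmvk, Mvd, Fdps and Msmo1, had an unadjusted limma p under 0.05, against 3.71% of all genes, with no adjusted p under 0.891. Both livers of 2.5 months, the highest Rragc+/+ and the lowest Rragc S74N/+ liver in enzyme level, also had the highest mean of a list of clock genes that peak near dusk, 6.88 and 7.21 against 4.90 to 5.91 in the other 6 livers. The part of this in the enzyme levels was not tested.

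**Figure D3:**
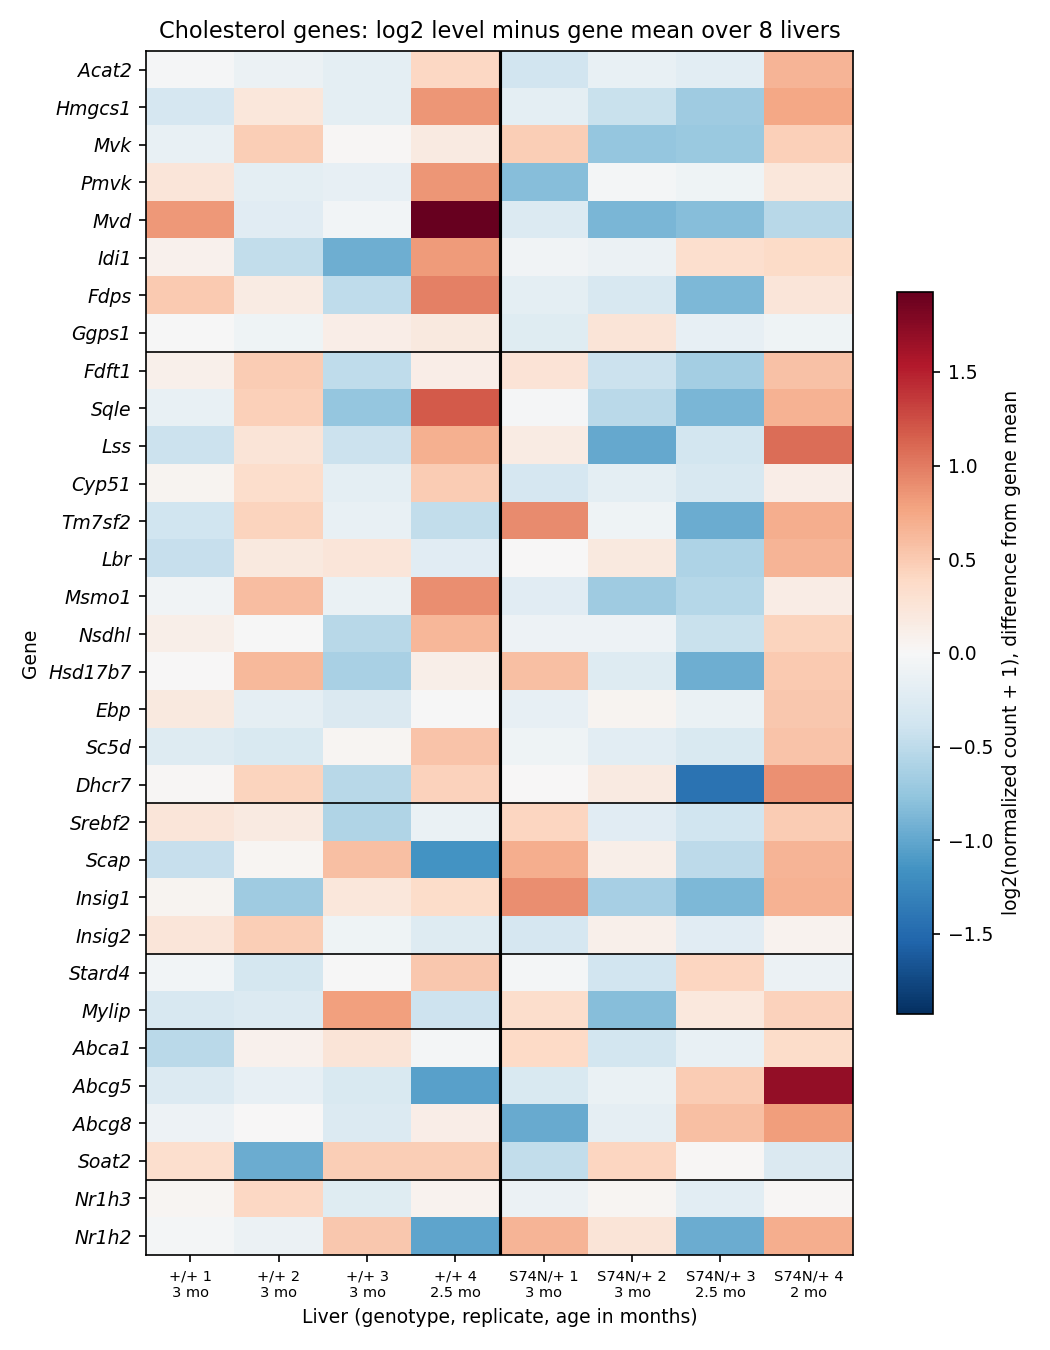
Difference of each gene's log2(normalized count + 1) from its mean over the 8 livers (red higher, blue lower), with genes as rows in role groups separated by lines and livers as columns by genotype and age. Most enzyme rows are red in replicate 4 of both genotypes and blue in replicate 3 of Rragc S74N/+. Mvd is an exception that is blue in all 4 Rragc S74N/+ livers and also in replicates 2 and 3 of Rragc+/+.

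The enzymes varied together across livers. Over the 190 pairs of enzymes, the median Pearson r of log2 levels over 8 livers was 0.52 and 175 pairs (92.1%) were positive, while over all tested genes the median was -0.0020 and 49.9% were positive. With genotype means removed the median was 0.58. Without the 2 livers farthest from the median enzyme level, Rragc+/+ replicate 4 and Rragc S74N/+ replicate 3, it was 0.43 over 6 livers, with 153 pairs positive. Each gene was then compared with the mean of the other enzymes. Sqle followed it most closely, with r = 0.97, then Hmgcs1 with r = 0.95 and Nsdhl with r = 0.92. In all, 9 of 20 enzymes (45%) had an r of at least 0.8, against 0.430% of the other 11154 tested genes. Mvd followed it less closely (r = 0.50 over 8 livers and -0.11 over the 6), and Ggps1 had r = 0.062 over 8 livers and -0.64 over the 6. Abcg5, which is no enzyme, had r = 0.020 over 8 livers and 0.79 over the 6. These values describe 8 livers and have no test, and the points share library, depth and scaling. Reads per liver had r = 0.60 with the enzyme mean. When the reads of each liver were drawn down at random to the smallest library, the enzyme mean ran from 7.84 to 8.88 over the livers. It ran from 7.83 to 8.89 at full depth. Drawing reads down and rescaling leaves the expected level of a gene unchanged, so the likeness of these ranges says nothing about depth. The part of depth in the enzyme levels was not tested.

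**Figure D4:**
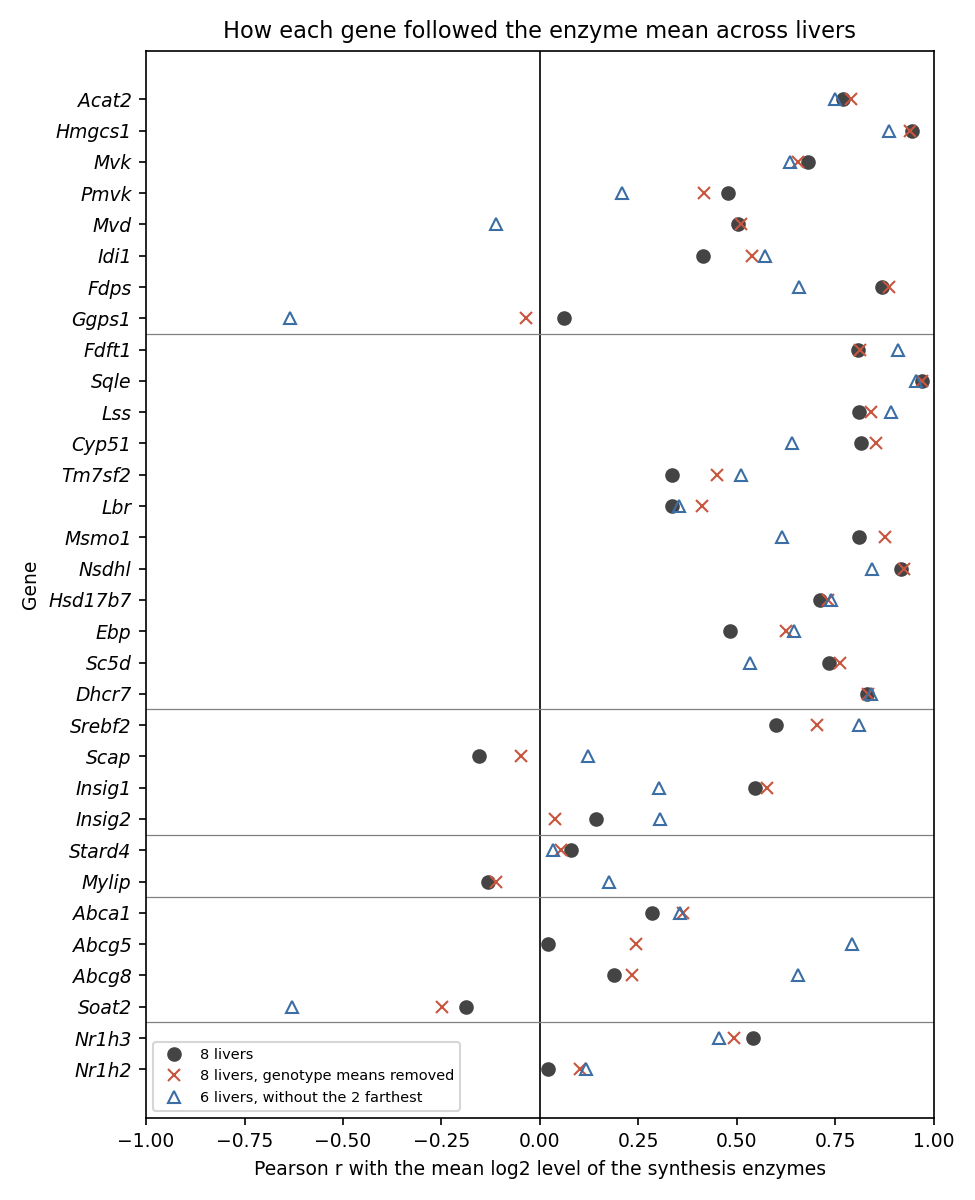
Pearson r (horizontal axis) of each of the 32 genes with the mean log2 level of the synthesis enzymes (the gene itself left out), over 8 livers (circles), with genotype means removed (crosses) and over 6 livers (triangles). Sqle, Hmgcs1 and Nsdhl lie above 0.9 over 8 livers, while Ggps1, Stard4, Abcg5 and Nr1h2 lie near 0 there, and over 6 livers Ggps1 lies at -0.64 and Abcg5 at 0.79.

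Genes of SREBP2 control had overlapping values in both genotypes, with 3 of 4 higher in Rragc S74N/+ and none at an unadjusted p under 0.05. Srebf2, which encodes SREBP2, was at 197, 188, 112 and 153 in Rragc+/+ livers and at 222, 144, 128 and 235 in Rragc S74N/+ livers. Replicates 1 and 4 were the higher livers among Rragc S74N/+, and the lowest liver of all was replicate 3 of Rragc+/+. Its log2 fold change was 0.15 with an interval from -0.44 to 0.74 (limma adjusted p = 0.910). Its r with the enzyme mean was 0.60 over 8 livers. Transcript levels do not show how much SREBP2 is processed.

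Insig1, an anchor of SCAP that is itself induced by SREBP2, was at 432, 261, 487 and 537 in Rragc+/+ livers and at 778, 268, 229.6 and 663 in Rragc S74N/+ livers. The Rragc S74N/+ livers held both the highest values and the lowest, and the log2 fold change was 0.027 with an interval from -0.80 to 0.85. Insig2, the related anchor with the highest level of this group, was at 615, 727, 498 and 442 in Rragc+/+ livers and at 419.6, 559, 451 and 552 in Rragc S74N/+ livers. The top values were Rragc+/+ replicates 1 and 2, and the log2 fold change was -0.19 (limma adjusted p = 0.866). Scap, which escorts SREBP2 to the Golgi, had the largest fold change of the group. It was at 258, 361, 526 and 157 in Rragc+/+ livers and at 574, 380.4, 246 and 554 in Rragc S74N/+ livers. The fold change was 0.49 on the log2 scale, with an interval from -0.29 to 1.27 (limma p = 0.201 unadjusted and 0.846 adjusted, exact permutation p = 0.257). In contrast with the enzymes, Scap was lowest of all in replicate 4 of Rragc+/+, and its r with the enzyme mean was -0.15.

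**Figure D5:**
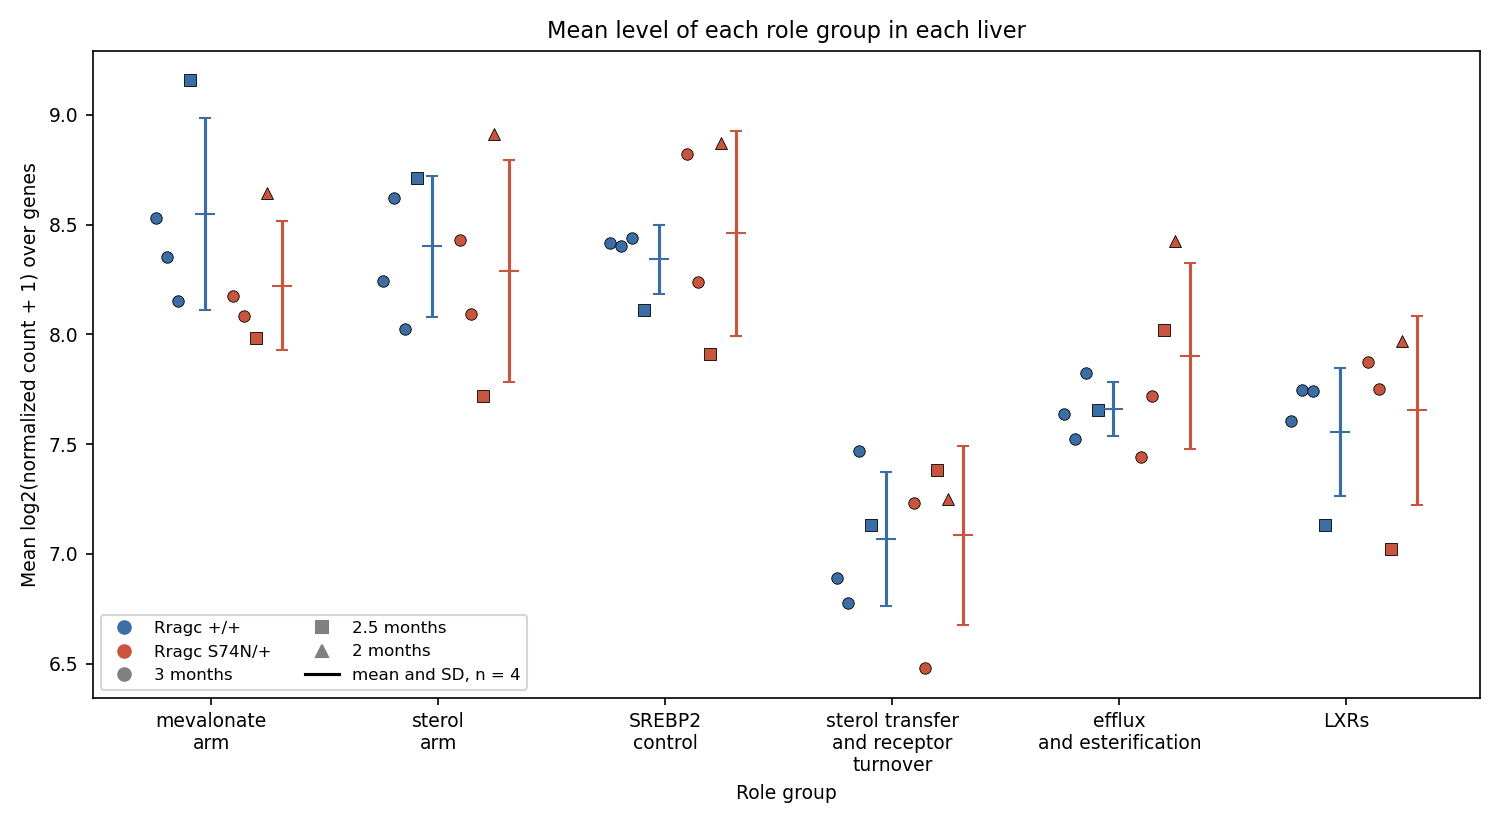
Mean log2(normalized count + 1) over the genes of each role group (vertical axis) in each liver, coloured by Rragc genotype with a symbol for age, and with mean and SD (n = 4) beside the points. The genotypes overlap in all 6 groups, and the mevalonate arm has the largest difference of means, 8.55 against 8.22.

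Of the genes for sterol transfer and receptor turnover, Stard4, which carries cholesterol between membranes, was at 502, 412, 518 and 749 in Rragc+/+ livers and at 509.6, 403, 693 and 485 in Rragc S74N/+ livers. Its log2 fold change was -0.053 with an interval from -0.56 to 0.45, and the groups overlapped throughout. Its r with the enzyme mean was 0.078. Mylip was low, at 27.0, 28.1, 59.4 and 25.2 in Rragc+/+ livers and at 43.2, 18.7, 39.0 and 46.5 in Rragc S74N/+ livers. Replicate 3 of Rragc+/+ stood apart from its group, and the log2 fold change was 0.089 with an interval from -0.76 to 0.94.

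Efflux genes included the 1 gene of the 32 with a higher value at an unadjusted p under 0.05. Abcg5 and Abcg8 encode the partner subunits of a single transporter that secretes sterols into bile, and they lie head to head on chromosome 17. Their annotated spans overlap on opposite strands, and the authors counted reads by strand. Abcg5 was at 89.5, 96.3, 87.7 and 51.4 in Rragc+/+ livers and at 87.2, 97.8, 152 and 352 in Rragc S74N/+ livers. Replicates 1 and 2 of Rragc S74N/+ lay within the Rragc+/+ range or just above it, and replicates 3 and 4, the younger mice, lay above every Rragc+/+ liver. The log2 fold change of Abcg5 was 0.88 (standard error 0.40), with an interval from 0.026 to 1.73 (limma p = 0.0444 unadjusted and 0.846 adjusted, exact permutation p = 0.143). Among 3-month-old mice it was 0.019, and it was 0.46 without Rragc S74N/+ replicate 4. The unadjusted limma p was above 0.05 without Rragc+/+ replicate 1 (0.0598), 3 (0.0607) or 4 (0.125), without Rragc S74N/+ replicate 3 (0.0665) or 4 (0.165), with age as a covariate (0.139), without the trend (0.0740), with array weights (0.0868) and with reads drawn down to the smallest library (0.0653). Replicate 4 of Rragc S74N/+, the highest liver, also had the lowest mean of the male-biased list, 8.57 against 10.7 to 11.7 in the other livers, and the part of this in the Abcg5 level was not tested.

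Abcg8 was at 394, 425, 354 and 462 in Rragc+/+ livers and at 216, 377, 637 and 739.9 in Rragc S74N/+ livers. As for Abcg5, replicates 3 and 4 of Rragc S74N/+ were the highest livers, but replicate 1 was the lowest of all. The log2 fold change was 0.12 with an interval from -0.59 to 0.83 (limma adjusted p = 0.942), and among 3-month-old mice it was -0.45. Abca1, which loads cholesterol onto apolipoprotein A-I, had a log2 fold change of 0.12 and overlapping values. Soat2, which esterifies cholesterol for storage and lipoproteins, was at 179, 72.9, 199 and 199.9 in Rragc+/+ livers and at 103, 190.2, 145 and 118 in Rragc S74N/+ livers. Replicate 2 of Rragc+/+ was the lowest liver, and the log2 fold change was -0.16 (limma adjusted p = 0.921).

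The liver X receptors overlapped as well. Nr1h3, which encodes LXRα, was at 436, 560.2, 361 and 446 in Rragc+/+ livers and at 393, 438, 370.0 and 433 in Rragc S74N/+ livers. It varied little, and its log2 fold change was -0.13 with an interval from -0.55 to 0.30. Nr1h2, which encodes LXRβ, was at 85.8, 81.4, 126 and 43.0 in Rragc+/+ livers and at 139, 105, 44.6 and 144 in Rragc S74N/+ livers. Its lowest livers were both mice of 2.5 months, 1 of each genotype. The log2 fold change was 0.32 with an interval from -0.54 to 1.19 (limma adjusted p = 0.874).

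Other genes of the pathway were counted from a list of 44, of which 43 were tested. Of these, 28 had a log2 fold change above 0 and 15 below 0, with a median of 0.089, and none passed an adjusted p of 0.05. At an unadjusted p under 0.05 there was 1 gene (2.33%), below the 5.17% of all tested genes. It was Tmem97, a sterol-responsive membrane protein, which averaged 788 ± 230.0 in Rragc+/+ livers and 532 ± 138 in Rragc S74N/+ (SD, n = 4 each), with a log2 fold change of -0.56 (limma p = 0.0476 unadjusted and 0.846 adjusted, exact permutation p = 0.114). It did not follow the enzymes, with r = 0.13. Of the 8 genes of SREBP processing and sterol-regulated degradation, 6 had a log2 fold change above 0 and 2 below 0. All 4 electron donors of sterol oxidation were above 0, with a median of 0.25.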

How the data were processed

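RNA from 8 whole mouse livers was made into libraries with the QuantSeq 3′ kit, which keeps strand. Alignment by the authors was to GRCm38 with TopHat2 2.0.10, Bowtie 1.0.0 and SAMtools 0.1.19. They counted reads per gene and strand with HTSeq 0.6.1 and scaled them with DESeq. What they deposited is the resulting signal: 1 normalized read count for each gene in each liver. The reads behind them were recovered as whole numbers, within 0.01, for 100% of values. Reads without stated molecular identifiers are not independent molecules. Groups came from the labels, and replicates were numbered in sample order, which only names a liver. Each library is labelled as a mouse of its own.

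Genotypes were compared with limma 3.58.1 under R 4.3.3, with its mean-variance trend, on log2(normalized count + 1). Genes were tested where their mean reached 10 (11174 genes), the model held genotype alone, and p-values were adjusted by Benjamini-Hochberg over all tested genes, with a threshold of 0.05. Alternatives on recovered reads were edgeR 4.0.16 (quasi-likelihood) and DESeq2 1.42.0, beside each liver left out, mice of 3 months only, an age covariate, array weights, no trend in limma, TMM scaling, filters at a mean of 50 or none, and pseudocounts of 0.1 or 5. A further one, drawing reads down to the smallest library, was chosen after seeing the data. The scripts were tested on simulated data.

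The genes and lists were chosen with earlier results of these data known. Values in every liver are given for genes with an unadjusted p under 0.05 or no overlap, for the most abundant gene and the one with the largest fold change in each role group, for genes with a liver far from its group, and for Srebf2 and Insig1. Other pathway genes are named at an unadjusted p under 0.05. Sqle, Nsdhl, Gpx3 and Kap were singled out after their values were seen. Positions are from GENCODE M21 and RefSeq, both on GRCm38.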

Additional observations from a re-analysis of the deposited data

Results flagged for a closer look

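Of 80 sets of 4 livers (each gene, role group and combined mean in each genotype), 5 had 1 liver far from the other 3 by Dixon's test, and chance flags about 1 in 20, or 4 here. Mylip was at 59.4 in Rragc+/+ replicate 3 against 25.2 to 28.1 in the other Rragc+/+ livers. Abcg5 was at 51.4 in Rragc+/+ replicate 4 against 87.7 to 96.3. Soat2 was at 72.9 in Rragc+/+ replicate 2 against 179 to 199.9. The mean log2 level of the SREBP2 control genes was 8.11 in Rragc+/+ replicate 4 against 8.40 to 8.44. The mean of Stard4 and Mylip was 6.48 in Rragc S74N/+ replicate 2 against 7.23 to 7.38.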

How the results depend on the processing

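No gene of the 32 passed an adjusted p of 0.05 under any alternative. The number at an unadjusted p under 0.05 was 1 with limma without the trend and ran from 1 (without Rragc+/+ replicate 4) to 4 (without Rragc+/+ replicate 3) with 1 liver omitted. The median log2 fold change of the 32 lay between -0.20 and 0.031 with 1 liver omitted, and was above 0 without Rragc+/+ replicate 4 or Rragc S74N/+ replicate 2 or 3. Mvd kept its unadjusted p under 0.05 in all 12 other settings and with each of the 8 livers omitted. The sign of the log2 fold change turned under at least 1 alternative for 18 genes, none with a main value beyond 0.255 either way. The direction is not established for these 18. A sign that held does not by itself establish it for the other 14, because all fits drew on the same livers. With array weights the log2 fold change was 0.015 for Hsd17b7, 0.067 for Sc5d and -0.023 for Abcg8. With edgeR it was 0.012 for Acat2, 0.079 for Lss and 0.0077 for Hsd17b7. With DESeq2 it was 0.011 for Acat2, 0.080 for Lss and 0.0092 for Hsd17b7. With age as a covariate it was -0.088 for Insig1 and -0.19 for Abcg8. In 3-month-old mice alone it was 0.0012 for Ggps1, 0.044 for Nsdhl, 0.16 for Hsd17b7, 0.026 for Sc5d, 0.11 for Dhcr7, -0.31 for Mylip, -0.45 for Abcg8 and 0.023 for Soat2. With reads drawn down it was 0.098 for Lss, -0.0091 for Insig1 and -0.011 for Mylip. With 1 liver omitted it ran from -0.26 to 0.089 for Acat2, -0.015 to 0.57 for Idi1, -0.32 to 0.083 for Fdft1, -0.42 to 0.27 for Lss, -0.072 to 0.35 for Lbr, -0.30 to 0.092 for Nsdhl, -0.27 to 0.25 for Hsd17b7, -0.011 to 0.22 for Ebp, -0.20 to 0.16 for Sc5d, -0.51 to 0.26 for Dhcr7, -0.017 to 0.30 for Srebf2, -0.27 to 0.32 for Insig1, -0.20 to 0.11 for Stard4, -0.047 to 0.38 for Mylip, -0.035 to 0.26 for Abca1 and -0.12 to 0.47 for Abcg8. Mylip was not tested at a mean of at least 50. No paired analysis was possible because replicates were numbered in sample order and pair no mice.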
